A study of Homo sapiens with 18 samples.

Results

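MYC binding was examined at the 4 HOX gene clusters in MCF10A cells, an immortalised breast epithelial line, by chromatin immunoprecipitation and sequencing (ChIP-seq). The members are all listed MYC peaks whose summit fell in 1 of 4 windows on hg19, the build of every peak position below: HOXA on chromosome 7, 27132000 to 27250000, HOXB on chromosome 17, 46604000 to 46808000, HOXC on chromosome 12, 54330000 to 54450000, and HOXD on chromosome 2, 176942000 to 177056000. The 9 peak lists held 121 such peaks among 150870 on chromosomes 1 to 22 and X. Peaks that overlapped by at least 1 bp across lists were merged, which gave 38 HOX regions among 43222 in all. All cells carried the plasmids pBABE-hygro-MYC and pMN-IRES-GFP-PI3KH1047R, that is, ectopic MYC and the PI3K mutant H1047R, and all received 2 µg/mL doxycycline for 72 h. The drug switched on a scramble hairpin (pLKO-tetON-puro-shSCR, written shSCR) or a hairpin against G9a, a histone methyltransferase, of which there were 2 (pLKO-tetON-puro-shG9a 1 and shG9a 4, written shG9a_1 and shG9a_4). Each had 3 MYC libraries, made with the antibody N262 and described as biological replicates. The DNA inputs and the level of G9a itself were not analysed here, and ectopic MYC in every group means that no library shows binding at endogenous MYC levels alone.

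HOX genes encode homeodomain transcription factors that set position along the body axis, and several remain active in adult mammary epithelium. In each cluster the genes stand in the order of their numbers, low-numbered genes acting towards the head and high-numbered genes towards the tail. Silent HOX genes are held by Polycomb group proteins, while Trithorax group proteins keep the active ones on. MYC binds DNA as a dimer with MAX, with the E-box CACGTG as its best known site, and G9a places methyl groups on lysine 9 of histone H3.

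The RefSeq table (GRCh38.p14, used for gene names and order only) lists 39 HOX genes. By that table gene numbers rise with the coordinate in HOXA and HOXB and fall with it in HOXD and, apart from HOXC4, HOXC5 and HOXC6, in HOXC. Positions are therefore given both as hg19 coordinates and as the distance from the end of the window nearest the low-numbered genes, called the low-number end. Which gene, exon or intron each region falls on was not analysed here, because no annotation of hg19 was used.

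Promoter sequences of some HOX genes were searched for CACGTG, which reads the same on both strands, since HOXD carried no listed MYC peak in any library. Each window runs from 250 bases before to 50 after a RefSeq start, in GRCh38.p14, so these positions cannot be set against those of the peaks. The motif stood in the promoters of 5 of 8 HOXD genes, 4 of 9 HOXA genes, 0 of 2 HOXC genes and 0 of 1 HOXB gene with a sequence, against 8.77% of all 27305 genes. CACGCG, searched on both strands (CGCGTG on the other), stood in 1 of these 20 HOX genes, HOXA3, against 13.5% of all genes. A match is a description of the letters and not of a bound site. The HOXD matches before the start site are shown first, as the cluster without a listed peak. CACGTG is in capitals with up to 47 bases on either side, and no stretch runs past the start site. Only those of HOXD3, HOXD1 and HOXA3 reach up to it, and the others stop before it.
HOXD13, GRCh38.p14 chr2:176092543-176092642, plus strand: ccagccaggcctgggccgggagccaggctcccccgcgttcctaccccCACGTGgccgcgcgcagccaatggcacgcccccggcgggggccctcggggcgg
HOXD11, GRCh38.p14 chr2:176107143-176107242, plus strand: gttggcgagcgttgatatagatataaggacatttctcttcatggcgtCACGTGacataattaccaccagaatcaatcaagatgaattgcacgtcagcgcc
HOXD10, GRCh38.p14 chr2:176116625-176116724, plus strand: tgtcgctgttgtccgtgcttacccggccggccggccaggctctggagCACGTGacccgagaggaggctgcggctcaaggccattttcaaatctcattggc
HOXD3, GRCh38.p14 chr2:176157213-176157306, plus strand: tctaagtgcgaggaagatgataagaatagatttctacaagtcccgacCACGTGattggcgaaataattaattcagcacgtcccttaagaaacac
HOXD1, GRCh38.p14 chr2:176188568-176188667, plus strand: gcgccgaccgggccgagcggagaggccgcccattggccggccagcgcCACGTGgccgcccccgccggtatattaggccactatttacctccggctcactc
In HOXA, the cluster with the most listed peaks, the matches before a start site were as follows. HOXA3 had 7 starts in the table and a match at 1 of them, and the match of HOXA7 spanned the start and is not printed.
HOXA3, GRCh38.p14 chr7:27118358-27118455, minus strand: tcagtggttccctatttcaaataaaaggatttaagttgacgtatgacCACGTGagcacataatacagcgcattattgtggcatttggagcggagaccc
HOXA4, GRCh38.p14 chr7:27130905-27131004, minus strand: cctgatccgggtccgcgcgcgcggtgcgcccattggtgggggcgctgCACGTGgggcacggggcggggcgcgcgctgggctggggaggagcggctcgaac
HOXA9, GRCh38.p14 chr7:27165556-27165655, minus strand: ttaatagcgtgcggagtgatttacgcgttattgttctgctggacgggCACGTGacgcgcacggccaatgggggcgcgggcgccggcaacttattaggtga
HOXD thus had E-boxes near the starts of some of its genes and no listed peak in its window, while HOXA had both. Whether any HOXA peak covers 1 of these E-boxes was not tested.

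MYC was listed at HOXA, HOXC and HOXB, in that order of region number, and not at HOXD. HOXA held 22 regions, or 18.6 per 100 kb of its window. HOXC held 12 (10.0 per 100 kb) and HOXB 4 (1.96 per 100 kb). The 43222 regions of all lists came to 1.43 per 100 kb, taking each chromosome up to its last peak. HOXD held 0 peaks in all 9 lists, and the nearest summits lay 74.9 kb below and 78.2 kb above its window. The upper neighbour, at chromosome 2, 177134025 to 177134613, was called in all 3 shSCR libraries with folds of 11.3, 8.59 and 10.7, and in 2 libraries of each G9a hairpin. Since a peak is listed only once it passes the caller's threshold, the empty window shows that MYC was not detectable there at these depths, not that it was absent.

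**Figure D1:**
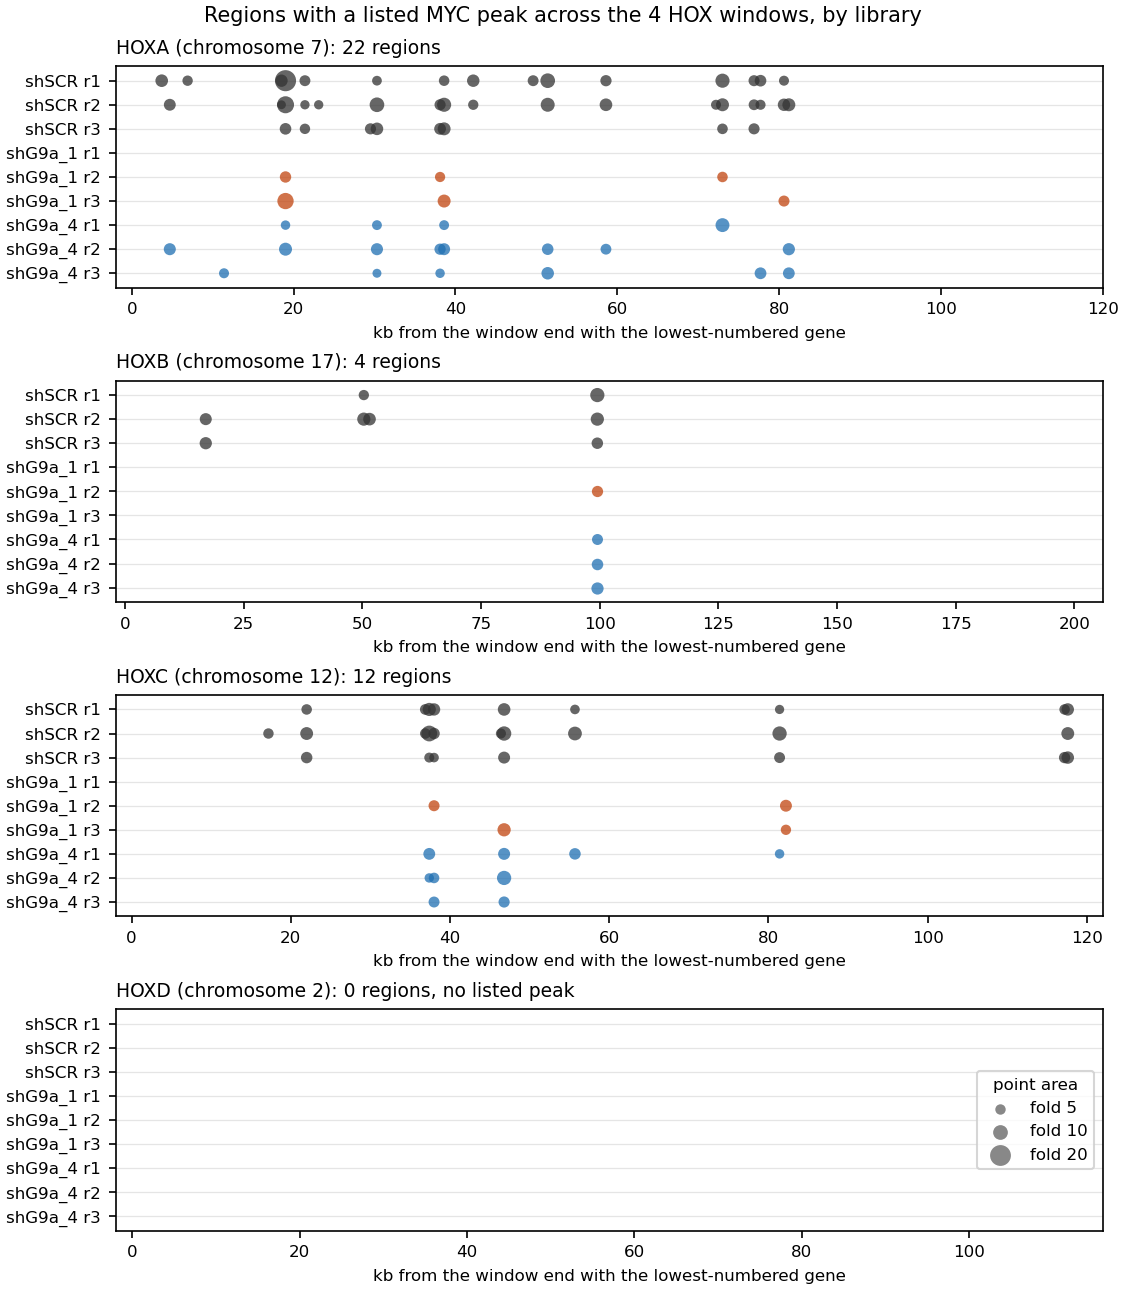
Regions with a listed MYC peak in each HOX window, by library (1 row each, r1 to r3 being replicates 1 to 3), along the distance in kb from the low-number end. Point area is proportional to the deposited fold of the strongest peak, and the HOXD panel is empty while the far 36.8 kb of HOXA and the far 104.5 kb of HOXB hold no point.

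The clusters differed in which end carried MYC. Each window was divided into 3 equal parts. In HOXA 12 of 22 regions lay in the part at the low-number end, 8 in the middle part and 2 in the part at the high-number end. Its regions ran from 3.7 to 81.2 kb and left the last 36.8 kb at the high-number end without a peak in any library. HOXB had 3 regions in the part nearest HOXB1, 1 in the middle part and 0 in the last, and the 104.5 kb up to the HOXB13 end were empty. HOXC was occupied at both ends, with 5, 3 and 4 regions in the parts from the HOXC4 end to the HOXC13 end, spanning 17.2 to 117.6 kb. Neighbouring regions were a median of 2.32 kb apart in HOXA, 4.84 kb in HOXC and 33.3 kb in HOXB. Among the regions that all 3 shSCR libraries called, the same parts held 4, 2 and 0 in HOXA, 0, 1 and 0 in HOXB, and 3, 1 and 2 in HOXC. These counts of position are a description with no test. The parts are equal in bases, and how the genes are spaced within them was not analysed here.

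In the shSCR libraries 13 of the 38 HOX regions (34.2%) were called in all 3, against 32.9% of all merged regions. HOXA had 6 of them, HOXC 6 and HOXB 1. Another 23 were called in 1 or 2 shSCR libraries and 2 in none. A fold here is the authors' deposited value at the summit, pileup over the background around it, and it ranks peaks within 1 list only.

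The strongest of these 13 regions, also the HOX region of highest mean shSCR fold, lay in HOXA. It stood at chromosome 7, 27150773 to 27151267, 19.0 kb from the low-number end. Its fold was 20.5, 13.4 and 6.23 in the shSCR libraries, and its peaks ranked at the 96.4, 86.4 and 44.3 percentile of their lists by q-value. After shG9a_1 it was listed with folds of 5.97 and 12.2 in replicates 2 and 3, and after shG9a_4 with 4.13 and 7.79 in replicates 1 and 2. It was thus listed in 4 of the 6 G9a-hairpin libraries and was not in the lists of shG9a_1 replicate 1 and shG9a_4 replicate 3. The pileups behind these folds, recovered from the deposited fold and p-value, were 31 (95% exact Poisson interval 21.1 to 44.0), 22 (13.8 to 33.3) and 12 fragments (6.20 to 21.0) in shSCR. In shG9a_1 replicate 3 the pileup was 20 fragments (12.2 to 30.9), whose interval overlaps all 3 shSCR intervals. It was 9 (4.12 to 17.1) in shG9a_1 replicate 2 and 10 (4.80 to 18.4) in shG9a_4 replicate 1. Both intervals overlap those of shSCR replicates 2 and 3. Neither overlaps that of shSCR replicate 1, and the interval of shSCR replicate 3 does not overlap it either. In shG9a_4 replicate 2 the pileup was 13 (6.92 to 22.2). Pileups are not scaled for depth. Relative to the shSCR mean, recovered depth was 1.04, 1.04 and 0.926 in shSCR. It was 0.839 and 1.09 in shG9a_1 replicates 2 and 3, and 1.90 and 1.05 in shG9a_4 replicates 1 and 2.

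The other HOXA regions of all 3 shSCR libraries were weaker. The region at 27162055 to 27162506 had folds of 4.38, 9.89 and 7.28 in shSCR, was listed in all 3 shG9a_4 libraries with 4.48, 6.73 and 3.70, and in no shG9a_1 library. The one at 27170315 to 27170845 had 5.11, 9.18 and 7.71 in shSCR, 7.76 in shG9a_1 replicate 3, and 4.50 and 6.59 in shG9a_4 replicates 1 and 2. Both thus stayed on some lists after shG9a_4, and the second also on 1 list after shG9a_1. Further towards the high-number end, the region at 27204675 to 27205384 had 9.20, 7.75 and 5.18 in shSCR and was listed once with each hairpin, at 5.11 in shG9a_1 replicate 2 and 8.91 in shG9a_4 replicate 1. In that region the summits of different libraries lay up to 507 bp apart, the widest spread of the 13, whose median was 102 bp. A further pair of HOXA regions was on no G9a-hairpin list: 27153154 to 27153453, with 5.5, 4.01 and 5.0, and 27208769 to 27209025, with 5.63, 5.38 and 5.68.

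HOXB had 1 region that all 3 shSCR libraries called, at chromosome 17, 46703123 to 46703689, near the middle of its window. Its folds were 9.31, 8.06 and 6.08 in shSCR, 5.84 in shG9a_1 replicate 2, and 5.57, 6.12 and 6.89 in shG9a_4. It was the only HOXB region on any G9a-hairpin list and was called in 4 of those 6 libraries. The pileups were 13, 11 and 8 fragments in shSCR and 9, 10 and 13 in shG9a_4, at recovered depths relative to the shSCR mean of 0.926 to 1.04 in shSCR and 1.90, 1.05 and 2.65 in shG9a_4, so these counts are not compared.

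HOXC had 6 such regions on chromosome 12. The broadest HOX region, 54402639 to 54403507, was 869 bp wide and lay 46.8 kb from the HOXC4 end. Its folds were 7.33, 9.51 and 6.61 in shSCR, 8.10 in shG9a_1 replicate 3, and 6.63, 9.36 and 5.75 in shG9a_4, so it too was called in 4 of 6 G9a-hairpin libraries. A pair lay nearer HOXC4, at 38.0 and 37.4 kb. The region at 54411397 to 54412224 had 7.04, 6.01 and 4.24 in shSCR, 5.61 in shG9a_1 replicate 2, and 5.15 and 5.54 in shG9a_4 replicates 2 and 3. Beside it, 54412463 to 54412865 had 8.0, 11.5 and 4.61 in shSCR and 6.47 and 4.10 in shG9a_4 replicates 1 and 2, with none after shG9a_1.

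Of the 6 HOXC regions that all 3 shSCR libraries called, the first and the last along the window were on no list after either hairpin. Nearest HOXC13, the region at 54332309 to 54332530 had 7.10, 7.63 and 7.16 in shSCR. At the other end of the 6, 22.0 kb from the low-number end, the one at 54427817 to 54428078 had 5.11, 7.64 and 6.06 in shSCR. The sixth, 54368079 to 54368783, had 3.96, 9.41 and 5.51 in shSCR and 4.13 in shG9a_4 replicate 1 alone.

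**Figure D2:**
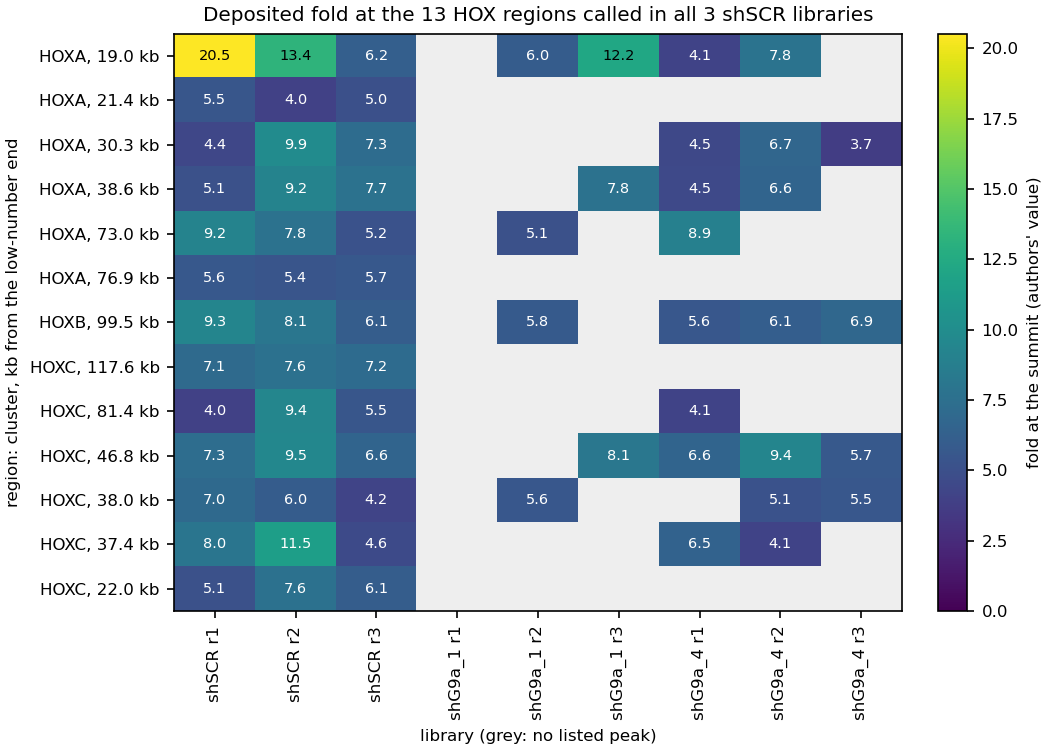
Deposited fold (colour and number) at the 13 HOX regions called in all 3 shSCR libraries (rows, named by cluster and kb from the low-number end) in each of the 9 libraries (columns); grey means no listed peak. Every row is filled in shSCR by choice of region, 4 rows are grey in all 6 G9a-hairpin libraries, and no row is filled in more than 4 of them.

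Among the 23 regions of 1 or 2 shSCR libraries, mean shSCR folds ran from 4.01 to 9.46, and 8 (34.8%) were called in at least 1 G9a-hairpin library, against 26.1% of all such regions. The strongest by fold in HOXA was 27183055 to 27183568, with 9.91 and 9.01 in shSCR replicates 1 and 2 and 6.17 and 7.22 in shG9a_4 replicates 2 and 3. It was followed by 27212845 to 27213478, with 7.75 in shSCR replicate 2 and 6.87 and 6.40 in the same 2 shG9a_4 libraries. In HOXB these were 46655224 to 46655631, with 7.38 in shSCR replicate 2, and 46620710 to 46621145, with 6.67 and 6.95 in replicates 2 and 3, and neither was on a G9a-hairpin list. In HOXC they were 54394060 to 54394456, with 4.26 and 8.73 in shSCR replicates 1 and 2 and 6.13 in shG9a_4 replicate 1, and 54332634 to 54333037, with 5.06 and 5.92 in replicates 1 and 3 and none after either hairpin.

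There were 2 regions on no shSCR list, while 4.55% of all merged regions were on none. In HOXA, 27143339 to 27143520 was listed in shG9a_4 replicate 3 alone, with a fold of 4.63. In HOXC, 54367534 to 54368017 was listed in shG9a_1 replicates 2 and 3, with 6.57 and 4.92 beside list medians of 6.37 and 6.62, and stands 61 bp from a region that all 3 shSCR libraries called. No HOX region was gained, meaning on no shSCR list and in at least 2 libraries of each hairpin, and over all merged regions that share was 0.00925%.

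The comparison of the hairpins asked whether lowering G9a changes MYC binding at the clusters. Fewer HOX peaks were listed with the G9a hairpins. The shSCR libraries held 27, 31 and 19 HOX peaks. The shG9a_1 libraries held 0, 6 and 5, and the shG9a_4 libraries 9, 14 and 10, so every G9a-hairpin library was below the lowest shSCR library. The means were 25.7 ± 6.11 (SD, n = 3) in shSCR and 7.33 ± 4.80 (SD, n = 6) with G9a hairpins, a difference of 18.3 peaks (two-sided exact permutation p = 0.0238, the smallest that 84 splits allow). The HOX mean with G9a hairpins was 28.6% of shSCR, beside 39.1% for all listed peaks. The whole lists did not overlap either, with 20118 to 34738 peaks in shSCR and 113 to 17454 with G9a hairpins. The list of shG9a_1 replicate 1 stands apart, with 113 peaks in all and none at HOX. Without it the G9a-hairpin mean was 8.80 ± 3.56 (SD, n = 5), with an exact permutation p of 0.0357, the lowest 56 splits can give. With the lists of 8 libraries, shG9a_1 replicate 1 left out, each limited to its top 11168 peaks by q-value, the direction turned: the shSCR lists then held 5, 7 and 5 HOX peaks, the shG9a_1 lists 6 and 4, and the shG9a_4 lists 9, 8 and 7, a difference of -1.13 (exact permutation p = 0.5).

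Set against the length of its own list, the HOX share was also lower. Per 1000 listed peaks, shSCR had 0.905, 0.892 and 0.944 HOX peaks, shG9a_1 had 0, 0.523 and 0.383, and shG9a_4 had 0.806, 0.802 and 0.774. The means were 0.914 ± 0.0271 (SD, n = 3) and 0.548 ± 0.319 (SD, n = 6), with a two-sided exact permutation p of 0.0238, and 0.658 ± 0.194 (SD, n = 5) without shG9a_1 replicate 1, where the exact permutation p was 0.0357, again the lowest it can be. The difference of the means was 0.366 per 1000. With peaks of fold 5 or more it was 0.395 (exact permutation p = 0.0238), and with those of −log10 q-value 5 or more it was 0.35 (exact permutation p = 0.0714). Among the top 11168 peaks it was -0.101 per 1000, with more in the G9a-hairpin lists (exact permutation p = 0.5). Total list length, which moves with this result, was 20118 to 34738 peaks in shSCR and 11168 to 17454 in the 5 G9a-hairpin libraries other than shG9a_1 replicate 1.

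**Figure D3:**
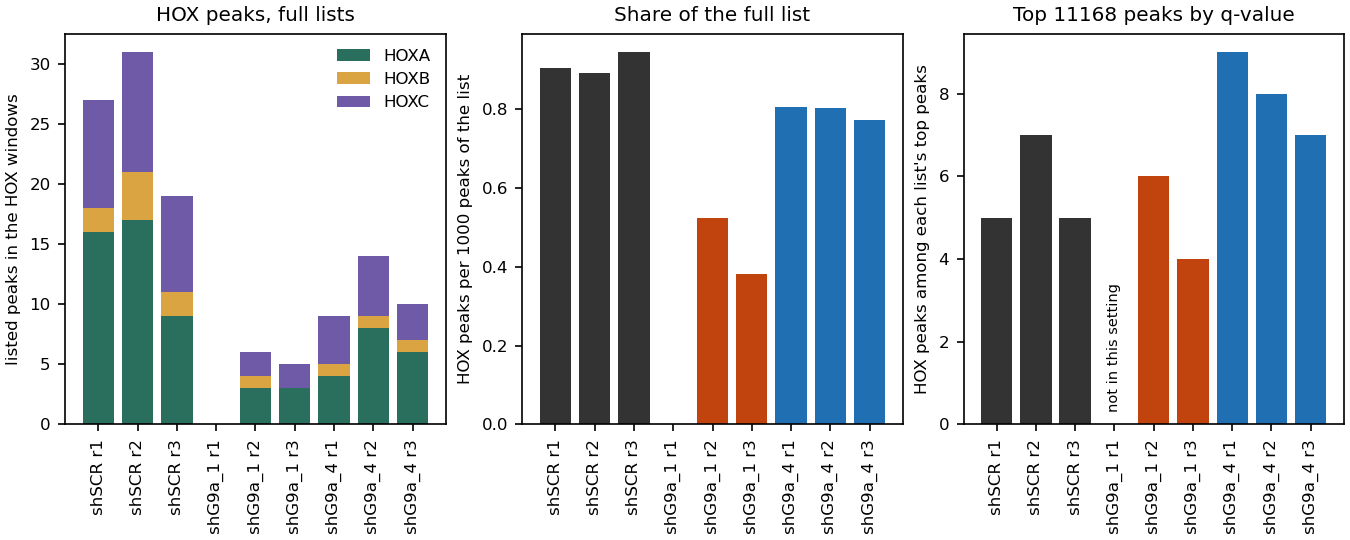
HOX peaks in each library: the number in the full list split by cluster (left), the number per 1000 peaks of the list (middle), and the number among the 11168 peaks of lowest q-value of each list (right, without shG9a_1 replicate 1). The shSCR libraries are highest in the first 2 panels (19 to 31 peaks, 0.892 to 0.944 per 1000), and shG9a_4 is at or above every shSCR library in the third (7 to 9 against 5 to 7).

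Each cluster with peaks showed the same order of groups. At HOXA the shSCR libraries held 16, 17 and 9 peaks, the shG9a_1 libraries 0, 3 and 3, and the shG9a_4 libraries 4, 8 and 6. At HOXC they held 9, 10 and 8, then 0, 2 and 2, then 4, 5 and 3, in the same order. At HOXB the shSCR libraries held 2, 4 and 2 peaks, and no G9a-hairpin library held more than 1. In none of the 3 clusters did the G9a-hairpin libraries overlap shSCR, and no test was run by cluster. The whole lists did not overlap either, and with shG9a_4 the mean was 42.9% of shSCR at HOXA, 37.5% at HOXB and 44.4% at HOXC beside 49.1% for all listed peaks.

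Taken separately, shG9a_1 had 3.67 ± 3.21 HOX peaks (SD, n = 3), 14.3% of the shSCR mean beside 29.1% for all listed peaks, with an exact permutation p of 0.1, the smallest that 3 against 3 libraries allow. Without replicate 1 its mean was 5.5 (n = 2), 21.4% of shSCR beside 43.5% for all listed peaks and 20.2 below shSCR (exact permutation p = 0.2, the smallest possible). The shG9a_4 libraries had 11 ± 2.65 (SD, n = 3), 42.9% of shSCR beside 49.1% for all listed peaks, also with an exact permutation p of 0.1. Both hairpins are compared with the same 3 shSCR libraries. Set against each other, shG9a_1 held 7.33 fewer HOX peaks than shG9a_4 (exact permutation p = 0.1, the smallest possible), and 5.5 fewer once shG9a_1 replicate 1 was left out (exact permutation p = 0.2, the smallest possible). The 2 sets of libraries did not overlap in HOX peaks, but the design cannot show a difference between hairpins at 0.05. Their whole lists did overlap, with 113, 11462 and 13068 peaks for shG9a_1 and 11168, 17454 and 12922 for shG9a_4.

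Of the 13 regions called in all 3 shSCR libraries, 4 were on no G9a-hairpin list, against 9.49% of the 14209 such regions in all. Those 4 were the pair at 27153154 and 27208769 in HOXA and the pair at 54332309 and 54427817 in HOXC. The other 9 were partial, called in 1 to 4 of the 6 libraries, against 53.6%. No HOX region (0 of 13) was kept, that is, called in at least 5 of the 6, against 36.9%. Without shG9a_1 replicate 1, which called 0.767% of all such regions and none of these, 3 of 13 were called in at least 4 of the remaining 5 libraries: the strongest HOXA region, the HOXB region and the broadest HOXC region. Without shSCR replicate 3, the shortest of the shSCR lists, 22 HOX regions were called in both remaining shSCR libraries and 8 of them were on no G9a-hairpin list. With either library left out, the matching shares of all regions were not worked out, so these counts are not read as particular to HOX.

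By hairpin, 7 of the 13 were called in none of the shG9a_1 libraries, against 25.3%, and 1 in at least 2 of them, against 47.5%. For shG9a_4, 4 were called in none, against 13.5%, and 7 in at least 2, against 68.8%. The 4 missing after shG9a_4 were among the 7 missing after shG9a_1. Replicates 2 and 3 of shG9a_1 called 4 and 3 of the 13, or 30.8 and 23.1%, against 57.7 and 64.5% of all 14209. The shG9a_4 libraries called 8, 7 and 4, or 61.5, 53.8 and 30.8%, against 58.3, 77.3 and 66.3%. Over all 38 HOX regions, 7 were called with both hairpins, 2 with shG9a_1 only, 10 with shG9a_4 only and 19 with neither. The shares of all merged regions in these classes were not worked out, so the split is not read as particular to HOX. Mean list length was 8214 peaks with shG9a_1 and 13848 with shG9a_4. Recovered depth relative to the mean of the shSCR libraries ran from 0.926 to 1.04 in those, was 0.839 and 1.09 in replicates 2 and 3 of shG9a_1, and was 1.90, 1.05 and 2.65 with shG9a_4. Its part in the difference between hairpins was not tested.

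The 13 HOX regions had a lower median strength than all MYC regions called in all 3 shSCR libraries. Strength, which averages over shSCR the percentile that the best peak reached by q-value within its list, had a median of 50.3 over the 13, against 66.9 over all 14209. The median of mean shSCR fold was 7.29 against 8.77, and median merged width was 495 bp against 532 bp. Of the 13, 12 lay in the weakest 4 of 10 strength classes and 1, the strongest HOXA region, in class 7. Over single HOX peaks of the shSCR lists, the median fold was 5.84, 7.38 and 5.92 beside list medians of 6.60, 6.67 and 6.92, so it was above the list median in replicate 2. Only 4 of the 121 HOX peaks had a fold of 10 or more. HOX peaks rested on 6 to 31 fragments with a median of 10, and 10 fragments carry a 95% exact Poisson interval of 4.80 to 18.4. These intervals cover counting error only.

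Calls were then set beside those of regions of like strength. The 13 HOX regions were called in 2.00 of the 6 G9a-hairpin libraries on average, against 3.25 over all 14209. The mean of all regions of the same strength classes was 2.02. Regions of those classes would give 2.61 lost, 1.04 kept and 9.35 partial among 13, beside the 4, 0 and 9 found. By class, the 3 HOX regions of the weakest class were called in 0.333 libraries on average against 1.08, and those of classes 2, 3 and 4 in 2.00, 2.33 and 2.67 against 1.67, 2.12 and 2.52. These are descriptions of few regions with no test.

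**Figure D4:**
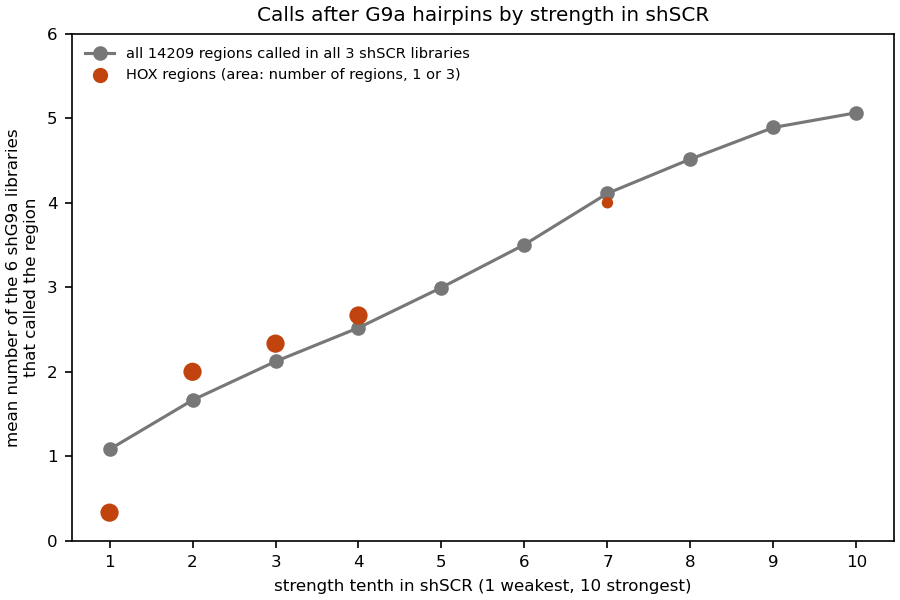
Mean number of the 6 G9a-hairpin libraries that called a region (vertical axis) by class of strength in shSCR, from 1 (weakest) to 10 (strongest), for all 14209 regions called in all 3 shSCR libraries (grey line) and the 13 HOX regions (red points, area by number of regions). The HOX points follow the grey line, with class 1 below it (0.333 against 1.08) and classes 2 to 4 slightly above it.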

How the data were processed

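MYC ChIP-seq peak lists of 9 libraries (3 per hairpin) were analysed. Per the submitters' processing notes, the builds were GRCh37 and hg19 and the tools included MACS2 2.1.0, STAR 2.5.2a, Picard 2.7.1 and SAMtools 1.3, with no roles named. Caller settings: not given in the sources used here. The authors' deposited score is 10 times the −log10 q-value without decimals, the deposited fold is a ratio of pileup to background at the summit, and the deposited −log10 q-value and −log10 p-value hold for the summit within each library. Peaks on chromosomes 1 to 22 and X were used (192 others left out). Total listed peaks per library were 113 to 34738; read depth is not listed. Fold and p-value gave whole-number pileups within 0.001 on the −log10 p scale for at least 99.99% of each list. Relative depth is the lowest background shared by 1% of a list's peaks, divided by its shortest peak, over the shSCR mean; for shG9a_1 replicate 1 it rests on a peak of 51 bp. The members and lists were chosen with earlier results of these data known. The rule named every region of all 3 shSCR libraries, up to 2 others per cluster by fold, and any on no shSCR list. The planned placing of regions and of other pathway genes by annotation was not run. Counts were compared by exact permutation tests (SciPy 1.17.1, Python 3.11.15) and checked on simulated data. Alternatives were stricter limits, other windows and merging, equal list lengths, leaving out each library and a replicate block.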

Additional observations from a re-analysis of the deposited data

How the results depend on the processing

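Widening the windows by 20 kb could add no peak, as the nearest summit outside any window lay 25.3 kb away. Counting any overlap moved none of the 9 results either. With lists of equal length (top 11168 peaks, 8 libraries), the HOX peak difference between shSCR and both hairpins turned from 18.3 to -1.13. That with shG9a_4 turned from 14.7 to -2.33, and the share difference from 0.366 to -0.101 per 1000. HOX regions in all 3 shSCR libraries fell from 13 to 0 and lost ones from 4 to 0. Over all merged regions of these lists, 6439 were in all 3 shSCR libraries. Of those, 80.2% were called in at least 4 of the 5 G9a-hairpin libraries and 1.23% were lost. With a −log10 q-value of at least 5 the share difference was 0.35 (exact permutation p = 0.0714), with 4 regions in all 3 shSCR libraries and 1 lost. With a fold of at least 5 there were 8 regions in all 3 and 3 lost. At these 2 limits the shares of all merged regions were not worked out. Permutation within replicate numbers (replicate block) left 18.3 peaks and 0.366 per 1000 with p = 0.0741, the smallest possible. The numbers were not read as pairs, since deviations of same-numbered libraries correlated at −0.0996 to 0.170. Leaving out 1 library gave differences from shSCR of 15.7 to 21.7 peaks (both hairpins), 19.3 to 25.3 (shG9a_1) and 12 to 18 (shG9a_4), −8.5 to −5.5 between hairpins and 0.256 to 0.418 per 1000; with any shSCR library out, p was 0.0714 for both hairpins, the smallest possible. It gave 13 to 22 regions in all shSCR libraries, 4 to 8 lost and 0 to 3 kept. The matching shares of all merged regions were not worked out. Merging peaks up to 200 bp apart gave 31 regions and 1 kept. Gained regions were 0 throughout. Lost means under the caller's threshold in each library, at its own depth and enrichment.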
